A study of Mus musculus with 4 samples.

Results

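The genes of oxidative phosphorylation (OXPHOS) were followed on 4 arrays of mouse embryonic fibroblasts (MEFs), from lines with and without the histone gene H3f3b. A probe was a member if its platform symbol started with Ndufa (Ndufaf genes left out), Ndufb, Ndufc, Ndufs, Ndufv, Uqcr, Cox4i, Cox5, Cox6, Cox7, Cox8 or Atp5, or was Sdha, Sdhb, Sdhc, Sdhd, Cyc1 or Cycs. This gave 102 of the 25697 probes and 82 of the 16593 named genes, of which 79 probes and 66 genes were above background on at least 2 of the 4 arrays (detection p under 0.05) and could be tested, among 11552 probes and 8047 genes in all. Measured values did not enter the rule. The knockout (KO) group held 2 lines, genotype H3f3b -/-, and the wildtype (WT) group 2 lines, genotype H3f3b WT/WT, all C57BL6J and derived at E12.5. The null allele came from a floxed allele through Zp3-Cre, which acts in the oocyte, so KO cells lacked the gene throughout. All lines came from 1 litter and carried a stable pBabe puro vector, and each line was the culture of 1 embryo. RNA of each line was hybridized once to an Illumina MouseRef-8 BeadChip, so n = 2 lines per genotype. The p-values, SEs and intervals rest on the spread between these lines, moderated towards a spread pooled over all tested probes. The lines gave 2 degrees of freedom and the pooled spread 4.86, so the pooled spread weighs more.

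Mitochondria make most of a cell's ATP by passing electrons along complexes I to IV of the inner membrane to oxygen. Complexes I, III and IV pump protons as they do so, and complex V, the ATP synthase, lets the protons flow back and makes ATP. Most subunits are encoded in the nucleus, and the transcription factors NRF1, GABPA and YY1 are known regulators of many of these genes. H3f3b encodes histone H3.3, a variant laid down in chromatin at any time of the cell cycle and found at active promoters, and a second gene, H3f3a, encodes the same protein.

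Because the members share known regulators, the promoters were searched for core letters of the sites of these factors, and the 80 bases just before the RefSeq start site (GRCm38.p6) are shown for 1 gene of each complex and for Cycs, the gene of somatic cytochrome c. Capitals mark a match to GCGCANGCG (NRF1) or CCGGAAG (GABPA) on either strand, and each sequence is written 5′ to 3′ on the strand of its gene. Every window shown holds a match, while most windows of this length in the members hold none.
Ndufs3: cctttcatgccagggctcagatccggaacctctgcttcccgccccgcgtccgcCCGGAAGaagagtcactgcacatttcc
Sdhd: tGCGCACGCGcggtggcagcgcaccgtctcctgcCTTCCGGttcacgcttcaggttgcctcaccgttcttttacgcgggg
Uqcrh: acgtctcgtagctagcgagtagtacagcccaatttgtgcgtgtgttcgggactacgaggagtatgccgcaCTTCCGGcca
Cox6a1: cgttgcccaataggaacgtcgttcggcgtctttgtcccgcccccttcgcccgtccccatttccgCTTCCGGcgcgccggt
Atp5h: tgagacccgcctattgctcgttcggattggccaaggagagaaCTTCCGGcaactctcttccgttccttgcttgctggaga
Cycs: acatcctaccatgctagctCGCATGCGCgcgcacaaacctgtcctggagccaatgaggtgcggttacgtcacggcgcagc
All of these genes lie on the minus strand. The windows are chr2:90904722-90904801 for Ndufs3, chr9:50603850-50603929 for Sdhd, chr4:116075071-116075150 for Uqcrh, chr5:115348959-115349038 for Cox6a1, chr11:115419920-115419999 for Atp5h and chr6:50566570-50566649 for Cycs. In Sdhd the first match is the NRF1 letters and the second the GABPA letters, Cycs holds the NRF1 letters, and the other windows hold the GABPA letters.

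RefSeq promoters (250 bases before to 50 after the start) were matched to 66 of the 82 genes. The NRF1 letters stood in 27.3% of the members with a promoter, against 7.03% of all 27025 genes with a promoter and 15.9% of the genes tested here. The GABPA letters stood in 24.2% of members, against 9.93% of all genes and 20.7% of those tested. The letters AAGATGGCG (YY1), whose matches in the members overlapped none of the others, stood in 10.6% of members, against 1.64% and 3.81%. At least 1 motif was found in 33 of 66 members, against 16.5% of all genes and 35.0% of the genes tested, so genes detected in these cells held the letters more often than genes at large. A stretch that reads the same on both strands was counted once per gene. A match is a run of letters, not a measured binding site.

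The arrays were checked against their labels first. The H3f3b probe gave a deposited signal of 97.3 and 98.7 in KO, not above background (detection p of 0.723 and 0.494), against 1735.7 and 1686.2 in WT, which puts H3f3b at least 69.5-fold lower in KO (limma, adjusted p = 3.05e-05). This bound sets the WT mean against the dimmest detected signal of the KO arrays. The lines differed in transcripts of the sex chromosomes: Xist gave a signal of 181 in KO 1, 107.4 in KO 2, 95.8 in WT 1 and 86.8 in WT 2, and Eif2s3y was not detected in KO 1 only. Of 14 fibroblast marker genes, 13 were detected, while 0 of 6 erythroid markers were, 1 of 7 endothelial (Emcn), 3 of 6 epithelial (Krt8, Krt18 and Krt19), 1 of 7 neural (Stmn2), 1 of 6 adipocyte (Pparg) and 3 of 14 muscle markers, of which Cox6a2 and Cox7a1 are members here. The mean log2 deviation of the fibroblast markers from the average array was -0.15 in KO 1, -0.17 in KO 2, 0.28 in WT 1 and 0.03 in WT 2. Emcn deviated by 0.39, 1.27, -0.42 and -1.24 on these arrays, and Stmn2 by 0.88, 0.52, -1.01 and -0.39. The epithelial markers went the other way, with means of -0.03, -0.33, -0.03 and 0.39. Those of the muscle markers were 0.1, 0.105, -0.04 and -0.17, and Pparg had 0.16, 0.14, 0.08 and -0.38. Of 13 macrophage markers 12 were detected, and their mean deviation was 0.49 in KO 1, 0.10 in KO 2, -0.08 in WT 1 and -0.51 in WT 2. The part of these cell types in the values below was not tested. The KO arrays were brighter as a whole, with a mean deposited signal of 381.4 and 381.8 against 290.7 and 294.4 in WT. The deposited signals of OXPHOS genes had a median KO to WT ratio of 1.33, against 1.28 over all genes, so brightness and genotype cannot be told apart before scaling. Values below are log2 signals after background correction and quantile normalization, which gives all arrays 1 distribution, and differences are KO minus WT.

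OXPHOS genes were strongly expressed and differed little between KO and WT. Of the 102 member probes, 77.5% to 80.4% were detected on each array, against 43.6% to 44.9% of all probes. The member probes held 3.13% of the background-corrected signal in KO 1, 3.26% in KO 2, 3.17% in WT 1 and 3.22% in WT 2, so that the WT arrays lay between the KO arrays. The shares by complex were not tested, and bright probes weigh most in them. In complex I the KO shares were 0.9483% and 0.9672%, below the 0.9937% and 0.9697% in WT. They lay above WT in complex II (0.03303% and 0.03328% against 0.02996% and 0.02787%) and complex III (0.4447% and 0.4534% against 0.4004% and 0.4384%). The shares of complexes IV and V overlapped. The fitted differences of single genes did not all follow these shares. Over complex III genes their median was 0.02 and their mean -0.01. Over complex I genes the median was -0.03, but 0.019 in the table scaled by the authors. No member gene passed an adjusted p of 0.05 (0 of 66, limma with Benjamini-Hochberg adjustment over all probes), where 0.0124% of all genes tested did, a share made up of H3f3b alone. At an unadjusted p under 0.05, 0 members were higher in KO, against 4.59% of all genes, and 0 were lower, against 3.54%. The smallest unadjusted p of a member gene was 0.114, for Ndufc1. None of the members differed by 1.5-fold or more, against 5.27% of all genes. In 8 members (12.1%) both KO arrays lay above both WT arrays, against 21.0% of all genes, and in 9 (13.6%) both lay below, against 17.1%. These counts depend on the scaling, with 26 above and 1 below under median scaling and 16 above and 8 below in the table scaled by the authors. The fitted difference was above 0 in 31 of 66 members (47%), against 52.4% of all genes. The median difference of the members was -0.01, against 0.01 over all genes, and it turned to 0.115 under median scaling (all genes 0.186) and to 0.023 in the authors' table (all genes -0.030). An exact permutation test of 2 against 2 arrays cannot give a two-sided p under 0.333, so none is quoted for single genes.

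**Figure D1:**
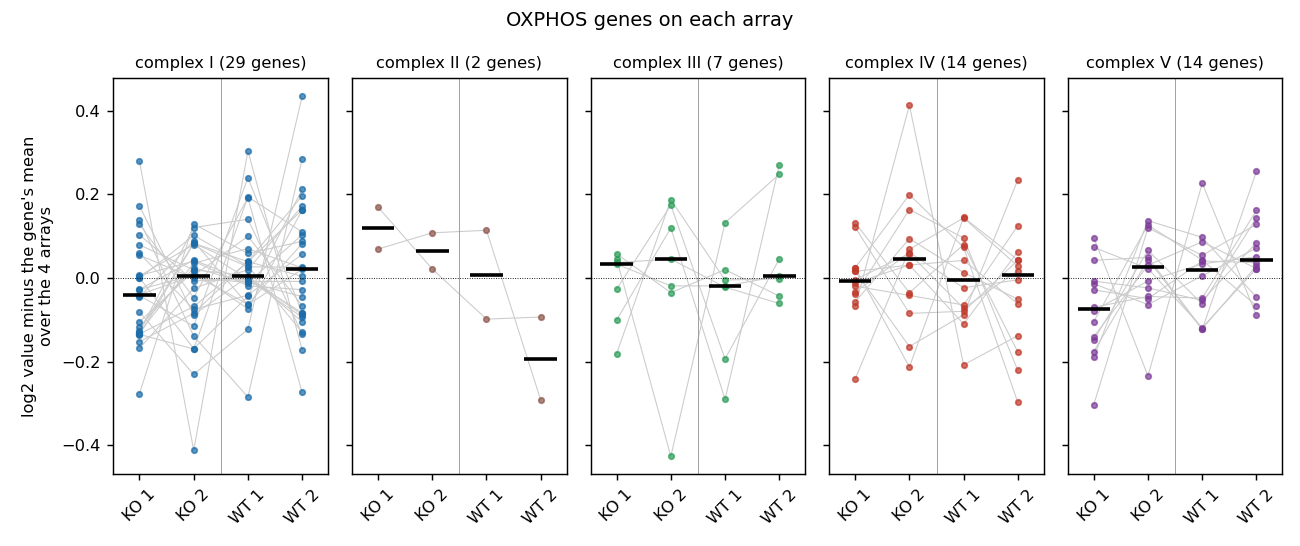
Each point is 1 OXPHOS gene on 1 array, as its log2 value minus the gene's mean over the 4 arrays, in 1 panel for each complex. Grey lines join the points of a gene and black bars are medians over genes, which lie within 0.08 of 0 on every array except in complex II, where 2 genes were tested and the medians run from 0.12 in KO 1 to -0.19 in WT 2.

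The spread of the differences was also narrow. Over the 66 members the KO minus WT differences had an SD of 0.13 in log2 units and ran from -0.38 for Uqcrb to 0.35 for Cox6b2, against an SD of 0.30 over all genes. The members were also brighter than most genes, with a median level of 10.86 against 7.11, and differences narrow with level. Within bands of level, the SD was 0.19 over 9 members and 0.33 over 5087 other genes below 8, 0.17 (8 members) and 0.28 from 8 to 10, 0.12 (18 members) and 0.24 from 10 to 11, 0.14 (16 members) and 0.19 from 11 to 12, and 0.07 (15 members) and 0.18 from 12 up. In log2 units the gap between the SDs was thus smaller in every band than over all levels together, and smallest between 11 and 12. No test was made of it. Some of the lists read below were as narrow. The SD was 0.13 for the mitochondrial ribosome (median level 8.91), 0.10 for the TCA cycle and pyruvate dehydrogenase (9.02) and 0.11 for cytosolic ribosomal proteins (13.03). It was wider in the remaining lists, from 0.18 for import to 0.47 for electron entry outside complexes I and II. The widest 95% confidence interval of a member reached a 1.85-fold difference, and changes smaller than the intervals shown cannot be seen with 2 arrays per genotype. Across the 66 genes the KO arrays correlated at 0.996 (Pearson, log2 values), the WT arrays at 0.995, and arrays of different genotype at 0.995 to 0.997. These correlations are across genes, which are not independent replicates.

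**Figure D2:**
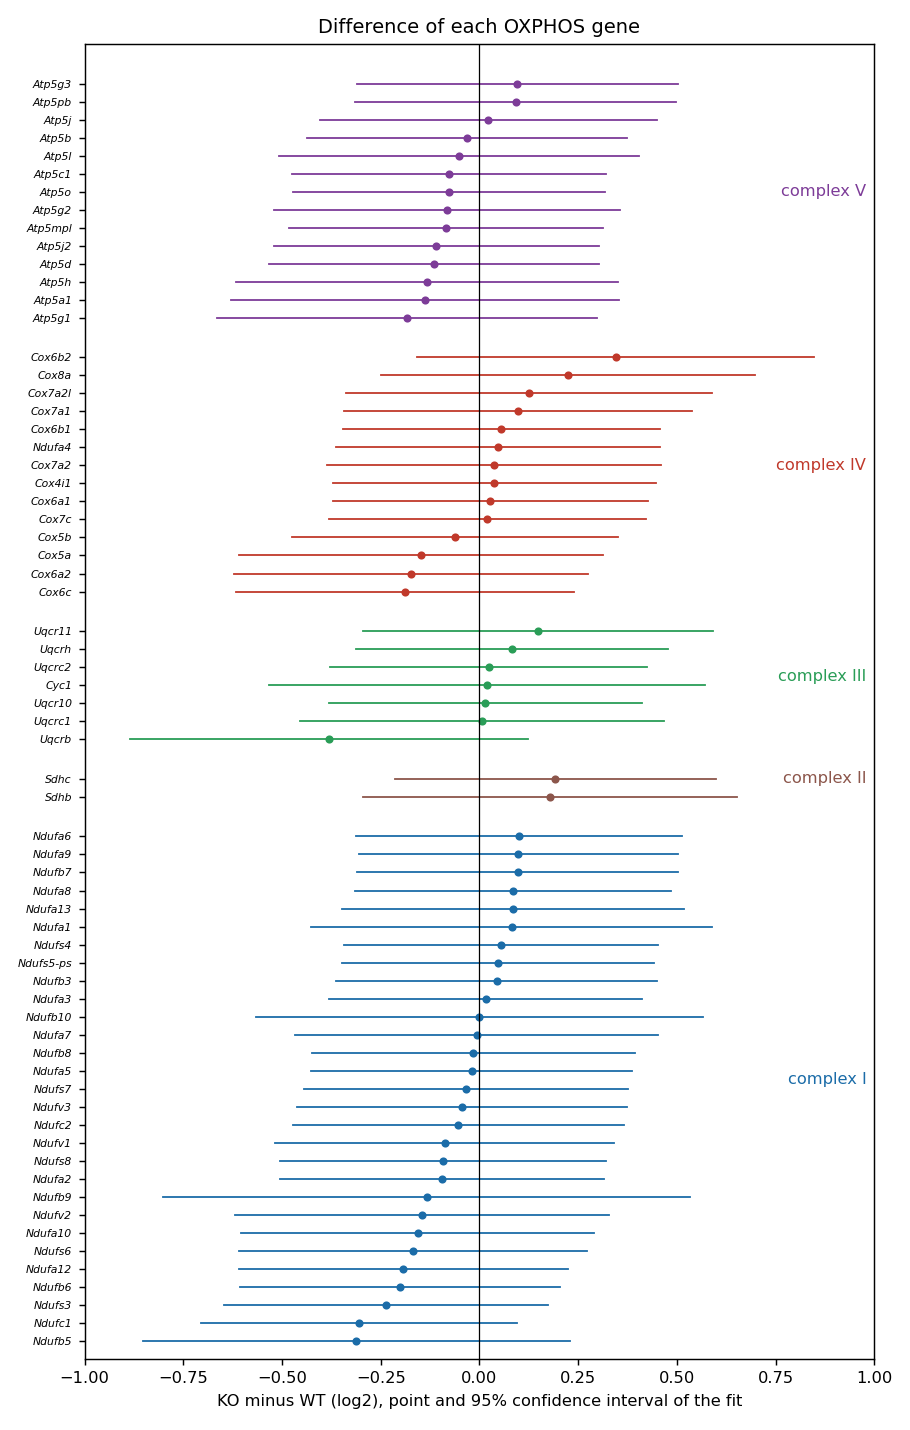
Points are the KO minus WT differences (log2) of the 66 OXPHOS genes, ordered within complexes I to V, and lines are 95% confidence intervals of the limma fit (n = 2 arrays per genotype). Every interval includes 0.

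**Figure D3:**
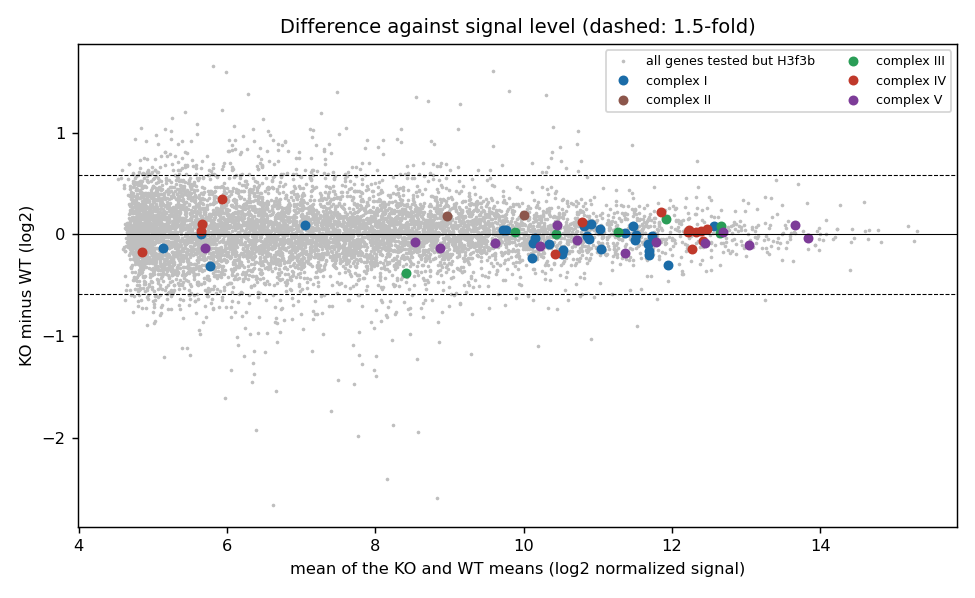
The KO minus WT difference (log2) is plotted against the mean level (log2 normalized signal) for all genes tested except H3f3b (grey) and for OXPHOS genes (coloured by complex). The dashed lines mark 1.5-fold, and all 66 members lie between them, most at levels above 8.

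Complex I takes electrons from NADH, and 29 of its 34 genes with a probe were tested. Their median difference was -0.03, with 10 genes above 0 and 19 below. Both KO arrays lay below both WT arrays in 4 of the 29 genes (Ndufa12, Ndufb6, Ndufc1 and Ndufs3), against 17.1% of all genes. They lay above in 4 (Ndufa8, Ndufa9, Ndufs4 and Ndufs5-ps, a pseudogene symbol that meets the rule), against 21.0%. The direction of the complex I median depends on the scaling. It was 0.101 with median scaling, where the median of all genes was 0.186, and 0.019 in the table scaled by the authors. Ndufc1, an accessory subunit of the membrane arm, had log2 values of 11.81 and 11.78 in KO and 12.14 and 12.06 in WT. Its groups did not overlap, and the difference was -0.30 ± 0.17 (SE, adjusted p = 0.736). A second, dimmer Ndufc1 probe gave 9.15 and 9.49 in KO and 9.44 and 9.12 in WT, so there the genotypes overlapped (difference 0.04 ± 0.21). Ndufs3, a core subunit of the arm that protrudes into the matrix, had 9.96 and 10.03 in KO and 10.15 and 10.31 in WT, with a difference of -0.24 ± 0.17 (adjusted p = 0.809). Both KO arrays were again the lower ones, and the 95% interval of the difference ran from -0.65 to 0.17. Ndufb5, an accessory subunit, was dim, with 5.70 and 5.55 in KO and 5.66 and 6.21 in WT, and its difference of -0.31 ± 0.23 (adjusted p = 0.809) came down to -0.03 without WT 2. Ndufb9 and Ndufb10 were as dim, with values of 4.73 to 5.45 and 5.36 to 5.93 over the 4 arrays. Ndufa1 lies on the X chromosome, and its values of 11.60 and 11.42 in KO and 11.66 and 11.20 in WT overlapped, although the lines differed in Xist.

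Complex II, succinate dehydrogenase, feeds electrons from the TCA cycle, and both of its tested genes had a difference above 0, with a median of 0.19. Sdhc, a membrane anchor, had 10.18 and 10.03 in KO and 9.91 and 9.92 in WT. Its genotypes did not overlap, with a difference of 0.19 ± 0.17 (adjusted p = 0.861). Sdhb, the iron-sulfur subunit, had 9.04 and 9.08 in KO and 9.09 and 8.68 in WT, so only WT 2 was low, and the difference of 0.18 ± 0.20 (adjusted p = 0.898) was -0.025 without that array. A second Sdhb probe gave 8.72 and 9.07 in KO and 8.80 and 8.84 in WT, which overlapped. The only Sdhd probe, for the other membrane anchor, was not above background on 2 arrays, and Sdha, the flavoprotein, was not analysed here.

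Complex III passes electrons from ubiquinol to cytochrome c. Of its 7 tested genes 6 had a difference above 0, and the median was 0.02. Uqcrb, a subunit next to the quinone site, had the largest difference of all 66 members, with 8.46 and 7.99 in KO and 8.55 and 8.66 in WT. Both KO arrays were lower, but the difference of -0.38 ± 0.21 (adjusted p = 0.740) moved from -0.615 without KO 1 to -0.143 without KO 2. Uqcrh, the hinge protein that helps the complex to bind cytochrome c, had 12.70 and 12.71 in KO and 12.65 and 12.61 in WT. These values did not overlap, but differed by 0.08 ± 0.17 (adjusted p = 0.957). Uqcr11 had 11.89 and 12.09 in KO and 11.73 and 11.96 in WT, which overlapped (difference 0.15 ± 0.19). Cyc1, the haem subunit cytochrome c1, varied more within each genotype (9.79 and 10.01 in KO, 9.60 and 10.16 in WT) than between the genotypes (0.02 ± 0.23). Neither Cycs probe was above background on 2 arrays. The first gave a deposited signal of 115.6 in KO 1, 105 in KO 2, 90.1 in WT 1 and 87.5 in WT 2, so the level of Cycs mRNA was not measured.

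Complex IV, cytochrome c oxidase, reduces oxygen to water, and several of its subunits come in a widely expressed form and in forms typical of muscle, testis or lung. Of the widely expressed forms, Cox4i1, Cox6a1, Cox6b1 and Cox8a were bright. The first 3 had differences of at most 0.06 between the genotypes, and Cox8a, described below, had 0.22. Cox4i1 had 12.33 and 12.49 in KO and 12.40 and 12.34 in WT (difference 0.04 ± 0.17). Cox6a1 had 12.18 and 12.28 in KO and 12.19 and 12.21 in WT (0.03 ± 0.17). Cox6b1 had 12.46 and 12.53 in KO and 12.40 and 12.49 in WT (0.06 ± 0.17). In each of these genes the genotypes overlapped. The forms typical of heart and skeletal muscle were near background on all arrays, with 4.62 and 4.93 in KO and 5.001 and 4.886 in WT for Cox6a2 and 5.79 and 5.62 in KO and 5.74 and 5.48 in WT for Cox7a1. Cox4i2, known from lung, Cox8b, the muscle form, and Cox8c and Cox7b2, known from testis, were not above background on 2 arrays. The testis form Cox6b2 was detected on each array by 1 of its 2 probes, with log2 values of 5.87 and 6.35 for KO and 5.73 and 5.80 for WT, while the other probe was above background on none. The KO values of the detected probe were both above WT, with a difference of 0.35 ± 0.21 (adjusted p = 0.775) that ranged from 0.101 without KO 2 to 0.582 without KO 1.

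Cox8a, the widely expressed form of subunit VIII, had 11.87 and 12.05 in KO and 11.92 and 11.55 in WT, where WT 2 alone was low (difference 0.22 ± 0.20, adjusted p = 0.861). Cox6c had 10.45 and 10.21 in KO and 10.57 and 10.47 in WT, with the KO values just below those in WT (difference -0.19 ± 0.18, adjusted p = 0.873). Ndufa4, first assigned to complex I and now known as a subunit of complex IV, had 12.25 and 12.26 in KO and 12.12 and 12.29 in WT (0.05 ± 0.17). Cox7a2l, known as a factor for supercomplexes of complexes III and IV, had 10.74 and 10.95 in KO and 10.88 and 10.56 in WT (0.13 ± 0.20). Its values overlapped too. The probe of Cox7a2, the widely expressed partner of Cox7a1, gave 5.77 and 5.57 in KO and 5.57 and 5.70 in WT, close to background, which limits what it shows of this gene. Over the complex, 10 of the 14 tested genes had a difference above 0, and the median was 0.04.

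Complex V had 14 of 16 genes tested, 11 of them with a difference below 0 and 3 above, and a median of -0.08. This median was 0.078 with median scaling (all genes 0.186) and -0.014 in the table scaled by the authors (all genes -0.030). The complex V median was -0.021 without KO 1. That array had the lowest median deviation of the 4 (-0.07, against 0.03 in KO 2, 0.02 in WT 1 and 0.04 in WT 2). In 3 of the 14 genes (Atp5c1, Atp5mpl and Atp5o) both KO arrays lay below both WT arrays, against 17.1% of all genes. In 1 (Atp5pb) both lay above, against 21.0%. The subunit c of the rotor ring is encoded by 3 genes whose mature protein is the same. Atp5g1 had 11.07 and 11.49 in KO and 11.43 and 11.50 in WT, with KO 1 alone low (difference -0.18 ± 0.20, adjusted p = 0.897). Atp5g2 had 9.46 and 9.68 in KO and 9.55 and 9.75 in WT (-0.08 ± 0.19). Atp5g3 had 13.73 and 13.68 in KO and 13.54 and 13.68 in WT (0.10 ± 0.17). In none of the 3 genes were the genotypes apart beyond the spread of the arrays. Atp5h, a subunit of the stalk that holds the catalytic head, had 8.69 and 8.91 in KO and 8.75 and 9.12 in WT (-0.13 ± 0.20). Atp5b, the catalytic beta subunit, had 13.83 and 13.82 in KO and 13.79 and 13.92 in WT (-0.03 ± 0.17). Atp5a1, the alpha subunit of the same head, had a probe that gave only 5.80 and 5.47 in KO and 5.93 and 5.62 in WT. Probes differ in how well they bind, so these levels do not order the genes.

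For 10 of the 66 genes several probes were tested, and they show how far 1 gene can be read in several ways. The 4 Ndufs4 probes, for an accessory subunit of complex I needed for its assembly, had differences of 0.05, -0.01, 0.00 and 0.01, at levels from about 7 to 11. The probes of Cox6a1, Cox6b1 and Ndufa8 had differences between 0.02 and 0.09, with overlap in all but the brighter Ndufa8 probe. The Ndufb6 probes both had a difference below 0 (-0.20 ± 0.17 and -0.24 ± 0.20), and the Atp5j probes had 0.02 ± 0.18 and -0.21 ± 0.19. The Uqcr10 probes, for a complex III gene, had 0.01 ± 0.17 and 0.21 ± 0.205. The second of these gave 12.55 and 12.57 in KO and 12.125 and 12.57 in WT, with WT 1 alone low. Ndufv3, a small subunit of the NADH-binding part of complex I, was named after its values were seen, since its dimmest probe was the only member probe with an unadjusted p under 0.05. This probe gave 5.69 and 5.86 in KO and 5.17 and 5.28 in WT, a difference of 0.55 ± 0.18 (unadjusted p = 0.0171, adjusted p = 0.543), with both KO arrays above both WT arrays. The 2 brighter Ndufv3 probes had 10.75 and 10.96 in KO and 10.92 and 10.88 in WT (-0.04 ± 0.18), and 10.23 and 10.17 in KO and 10.21 and 10.19 in WT (0.00 ± 0.17). These overlapped.

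**Figure D4:**
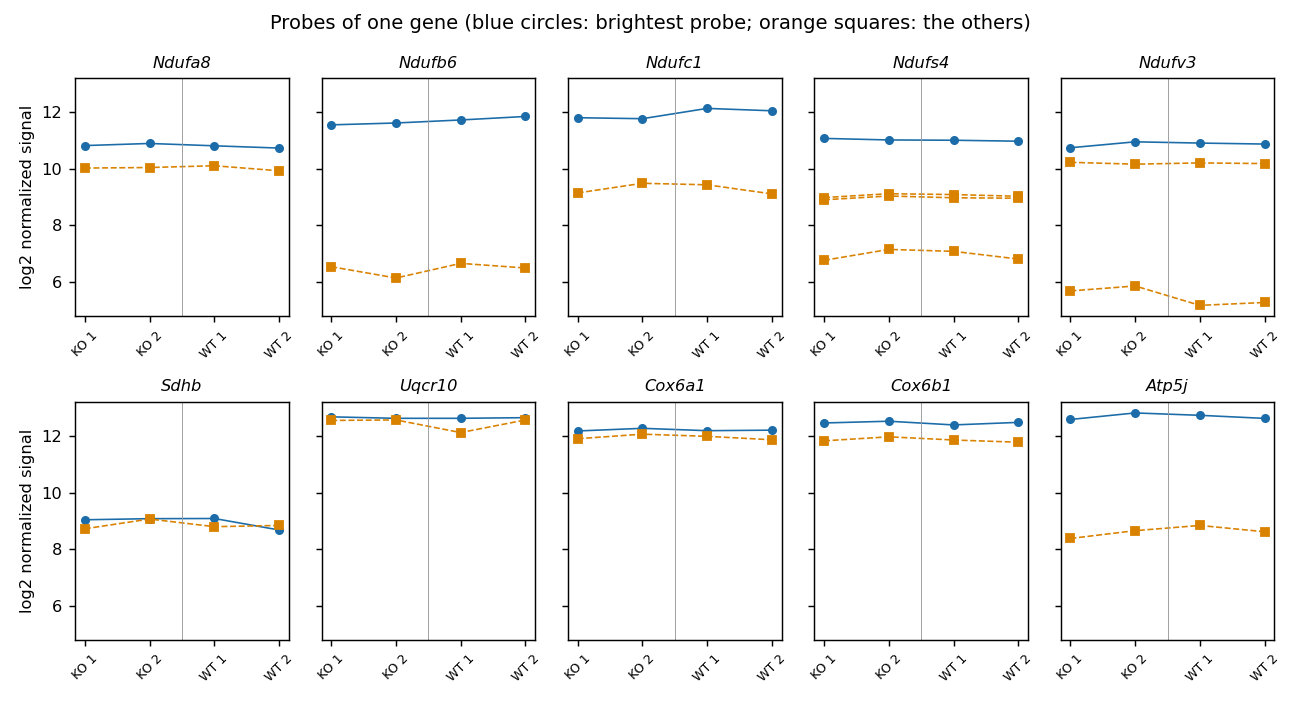
Log2 normalized signals of every tested probe of the 10 OXPHOS genes with several, on the 4 arrays. Blue circles are the brightest probe, which stands for the gene, orange squares are the others, and lines join the values of 1 probe. The dimmest Ndufv3 probe is the only one at an unadjusted p under 0.05.

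Of the 82 genes, 16 were not above background on 2 arrays and have no comparison. They were Ndufab1, Ndufb2, Ndufb4, Ndufb11 and Ndufs1 of complex I, Sdhd of complex II, Uqcrfs1 and Uqcrq of complex III, Cox4i2, Cox7b, Cox7b2, Cox8b and Cox8c of complex IV, Atp5e and Atp5k of complex V, and Cycs. Several of these, such as Ndufs1, the largest subunit of complex I, and Uqcrfs1, the Rieske iron-sulfur protein, are needed in every respiring cell, so a dim probe here does not show a silent gene.

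Members with and without the promoter letters had medians within 0.05 of each other. Tested members with the NRF1 letters had a median difference of -0.01 (14 genes) and those without 0.00 (40 genes). With the GABPA letters it was 0.03 (13 genes), and -0.02 without (41 genes). With the YY1 letters it was -0.03 (7 genes), and 0.00 without (47 genes). With any of the 3 motifs it was 0.00 (28 genes), and -0.01 without (26 genes). Among the genes shown above, Ndufs3 and Atp5h had a difference below 0 and Uqcrh and Cox6a1 above 0, while Sdhd and Cycs were not tested.

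Genes that build or supply the respiratory chain were read on the same arrays. Of 21 tested assembly factors, which help to put the complexes together, 0 passed an unadjusted p of 0.05, and the median was 0.00 (10 above 0, 11 below). Cox18, which inserts a complex IV subunit into the membrane, had 9.64 and 9.65 in KO and 10.03 and 10.04 in WT, with no overlap and a difference of -0.39 ± 0.17 (adjusted p = 0.632). Cox19, a copper-handling factor, had 9.42 and 9.55 in KO and 9.20 and 9.19 in WT (0.30 ± 0.17, adjusted p = 0.756). The median of 13 regulators of mitochondrial genes was 0.00. Of these, 1 had an unadjusted p under 0.05 and was lower in KO (all genes 3.54%), and 0 were higher. It was Ppargc1b, a coactivator of mitochondrial genes, whose probe was detected on both WT arrays and on neither KO array. It was tested only through the group where it is high, and the bound on its difference is at least 1.21-fold (adjusted p = 0.570). Gabpa had 5.96 and 5.67 in KO and 5.47 and 5.39 in WT (0.39 ± 0.19, adjusted p = 0.681). Of 14 genes of the TCA cycle and pyruvate dehydrogenase, 0 passed an unadjusted p of 0.05, and the median was 0.02. The smallest p-values there were those of Dlat and Dlst, with differences of 0.19 ± 0.18 and 0.17 ± 0.17.

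The mitochondrial ribosome, which translates the subunits encoded in mitochondrial DNA, had 20 of 69 tested genes above 0 and 49 below, with a median of -0.05. Its mean level was 0.08 above the average of the arrays in WT 2 and between -0.05 and -0.01 on the other 3. Mrpl24 was the only one of these genes at an unadjusted p under 0.05 (1 of 69, against 3.54% of all genes lower at this p), with 8.29 and 8.16 in KO and 8.61 and 8.66 in WT (-0.41 ± 0.17, adjusted p = 0.624), and Mrpl52 followed with -0.34 ± 0.18 (adjusted p = 0.720). The 15 tested import genes had the same array on top, with WT 2 at 0.10 and the others between -0.07 and -0.01, and a median difference of -0.08. Leaving out KO 1, KO 2, WT 1 and WT 2 in turn gave medians of -0.047, -0.099, -0.107 and -0.008 for the mitochondrial ribosome. For import they were -0.079, -0.084, -0.099 and -0.027. With median scaling, where the median of all genes was 0.186, the medians were 0.135 for the ribosome and 0.131 for import. Of the import genes, Timm10 had a difference of -0.47 ± 0.27. Timm17b was detected on the KO arrays only, with a bound of at least 1.08-fold (adjusted p = 0.775).

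Genes of the routes that bring electrons to ubiquinone from outside complexes I and II held the largest difference among these lists. Of the 5 tested (Gpd2, Etfdh, Etfa, Etfb and Dhodh), 2 were lower at an unadjusted p under 0.05 (all genes 3.54%) and 0 were higher (4.59%). Gpd2, the mitochondrial glycerol phosphate dehydrogenase, had 6.90 and 6.89 in KO and 7.90 and 7.43 in WT. Both KO arrays were lower, with a difference of -0.77 ± 0.21 (adjusted p = 0.542). Etfdh, which takes electrons from fatty acid oxidation, had 7.89 and 7.75 in KO and 8.32 and 8.35 in WT (-0.51 ± 0.17, adjusted p = 0.561). The other 3 genes of the list had differences above 0, and its median was 0.05. This median was 0.035 without KO 1, -0.082 without KO 2, 0.070 without WT 1 and -0.004 without WT 2. Among 5 outer membrane and carrier genes the median was -0.21 (0.070 without KO 1, and -0.059 with median scaling), with -0.35 ± 0.17 for Slc25a5, an ATP and ADP carrier (12.28 and 12.41 in KO, 12.67 and 12.73 in WT, adjusted p = 0.685), and 0.31 ± 0.18 for Vdac2, an outer membrane channel.

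Glycolysis, the other source of ATP, had 4 of 13 tested genes above 0 and a median of -0.04, and 1 gene had an unadjusted p under 0.05 and was higher in KO (all genes 4.59%). This was Pgk1, whose dim probe was detected on both KO arrays and on neither WT array. It too was tested only through the group where it is high, with a bound of at least 1.38-fold (adjusted p = 0.576). Hk2, which starts glycolysis, had 10.70 and 10.56 in KO and 10.12 and 10.33 in WT (0.40 ± 0.18, adjusted p = 0.646). The 53 tested cytosolic ribosomal protein genes, a brighter group with a median level of 13.03, had 22 above 0 and 31 below. Their median was -0.04 and their SD 0.11, beside the 0.13 of OXPHOS genes. With median scaling, where the median of all genes was 0.186, the medians were 0.001 for these genes and 0.046 for glycolysis. Rps3a1 and Rpl4 had the smallest p-values of the ribosomal protein genes, with differences of -0.26 ± 0.17 and -0.26 ± 0.17. No gene of any of these lists passed an adjusted p of 0.05.

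**Figure D5:**
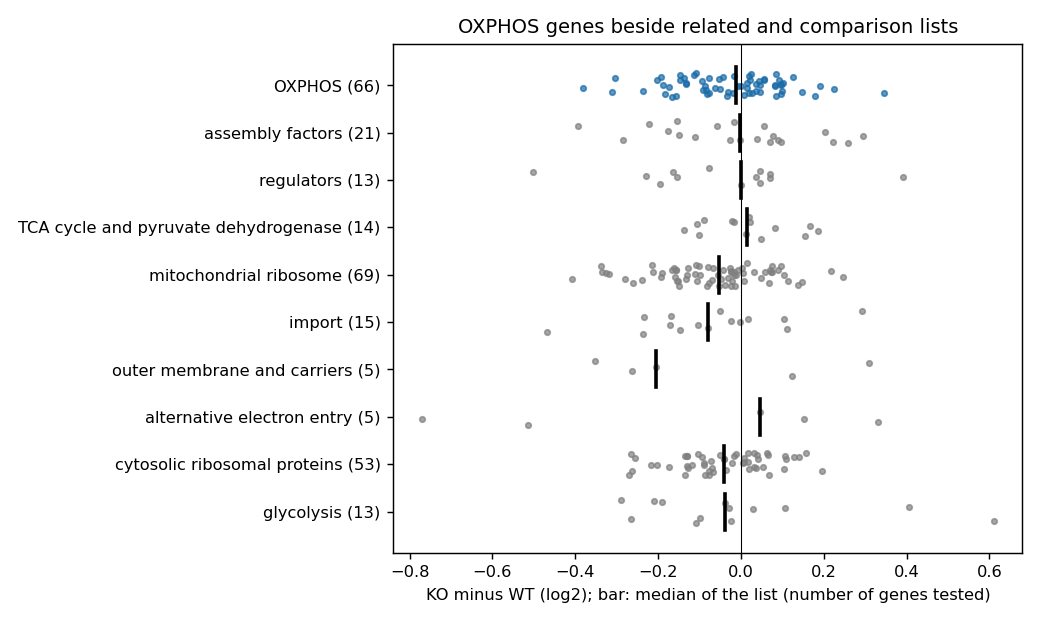
Each point is the KO minus WT difference (log2) of 1 tested gene, for the 66 OXPHOS genes (blue) and 9 related or comparison lists (grey), and bars are medians. Differences of OXPHOS genes lie between -0.38 and 0.35, and Gpd2, at -0.77, is the lowest point of the plot.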

How the data were processed

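Total RNA of 2 KO and 2 WT MEF lines was hybridized to Illumina MouseRef-8 BeadChips, with an array for each line. The authors summarised beads per probe in GenomeStudio and deposited signal intensity values with no background subtraction or scaling. They also deposited a detection p-value per probe and array, taken against negative control probes, and a table of intensities in which each array was multiplied by 1 factor. The number of arrays limits the precision.

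Signals were processed in limma 3.58.1 (R 4.3.3): normexp background correction from the detection p-values, an offset of 16, quantile normalization and log2. A probe was kept if its detection p was under 0.05 on 2 or more arrays. A gene was its tested probe with the highest mean. KO and WT were compared with lmFit and eBayes, without blocks (two-sided, with 2 residual degrees of freedom and 4.86 from the prior), with Benjamini-Hochberg adjustment over all 11552 probes. Genes were named from the platform annotation, which gave 1 symbol for 23978 probes and none for 1719. The pipeline was tested on simulated data.

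The members and lists were chosen with earlier results of these data known. Named genes were H3f3b, the 3 members of each complex with the largest difference, members at an unadjusted p under 0.05, isoform pairs, Cycs, and up to 2 genes of each related list with the smallest p. Atp5b, Cyc1, Ndufa1, Ndufb9, Ndufb10, the members with several probes, those without overlap between genotypes and those not tested were named outside of this rule, after their values were seen. Line numbers were not taken as pairs, since the lines were littermates and same-numbered lines did not deviate together. Ucp genes and transcripts of mitochondrial DNA had no tested probe. Promoter windows came from RefSeq (GRCm38.p6), and promoters on chromosome 18 are not shown.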

Additional observations from a re-analysis of the deposited data

How the results depend on the processing

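No OXPHOS gene passed an adjusted p of 0.05 under any alternative run (no background correction, an offset of 50, median scaling, the authors' scaled table, all probes without a filter, only probes with detection p under 0.01 on every array, eBayes with trend and robust variances, the replicate block, the mean over probes, and leaving out each array), and the smallest adjusted p among 335 values of named members was 0.283, for Ndufb5 without WT replicate 1. H3f3b passed the test wherever it was tested, with a fitted difference of -6.643 to -4.456 whose size depends on the background step, and was not tested under the strict filter, since it was not detected in KO. Line numbers gave no pairing (correlation of the deviations of same-numbered lines -0.036 over all probes and 0.025 over OXPHOS probes), and the replicate block changed no call, with 0 OXPHOS genes called and H3f3b at -6.556.

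At an unadjusted p under 0.05, 1 OXPHOS gene was lower without background correction, with an offset of 50, in the table scaled by the authors, without the detection filter and with trend and robust variances (Ndufc1 each time). Of all 8047 genes tested, 291 were lower without background correction, 300 with an offset of 50 and 475 in the authors' table. 1 OXPHOS gene was higher with median scaling (Cox6b2), in the authors' table (Sdhc) and without the filter (Ndufb2). Over all genes, 1053 were higher with median scaling and 455 in the authors' table. Leaving out an array leaves 1 array in a genotype, so no count at an unadjusted p is read from those runs.

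Median scaling over all probes raised the median of all genes to 0.186, and with it that of OXPHOS genes to 0.115, complex I to 0.101, complex II to 0.385, complex III to 0.171, complex IV to 0.133 and complex V to 0.078. Both KO arrays then lay above both WT arrays in 26 members and below in 1, and the share over all genes was not counted there. Relative to all genes, the medians were -0.071 (OXPHOS), -0.085 (I), 0.199 (II), -0.014 (III), -0.052 (IV) and -0.108 (V). Atp5a1, Atp5h and Atp5g2 turned to 0.040, 0.086 and 0.107. In the authors' table the median of all genes was -0.030, and those of OXPHOS genes and complexes I, III, IV and V were 0.023, 0.019, 0.091, 0.081 and -0.014. Both KO arrays lay above both WT arrays in 16 members there, again without a share counted over all genes. Cox7a1 and Cox7a2 turned to -0.055 and -0.073. Median scaling over the tested probes, chosen after seeing the data, gave -0.004 for complex I and 0.065 for complex III, and -0.033 for Cox7a2.

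Leaving out each array in turn, the medians ranged from -0.036 to 0.005 (OXPHOS), -0.055 to -0.010 (complex I), 0.087 to 0.284 (II), 0.008 to 0.088 (III), 0.010 to 0.049 (IV) and -0.114 to -0.021 (V). The differences that changed sign ranged as follows: Atp5a1 from -0.301 to 0.027, Atp5g1 from -0.386 to 0.028, Atp5g2 from -0.188 to 0.029, Atp5h from -0.319 to 0.056, Cox4i1 from -0.035 to 0.112, Cox6a1 from -0.020 to 0.079, Cox7a1 from -0.032 to 0.228, Cox7a2 from -0.063 to 0.138, Cox7a2l from -0.032 to 0.282, Ndufa4 from -0.044 to 0.126 and Sdhb from -0.025 to 0.381. The cause of these shifts was not tested. With 2 arrays per genotype, the 95% intervals of the members leave room for differences of up to 1.85-fold.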
